A study of Mus musculus with 25 samples.

Results

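The glucocorticoid receptors and a set of glucocorticoid-responsive genes were examined in mRNA bound to the ribosomes of spinal cord cholinergic neurons. The set holds 10 genes, chosen by name from the 50559 genes of the count table: the receptors *Nr3c1* and *Nr3c2*, and the responsive genes *Fkbp5*, *Sgk1*, *Tsc22d3*, *Zbtb16*, *Klf9*, *Hif3a*, *Errfi1*, and *Pdk4*. All 10 were among the 21738 genes tested. The mice were 6-mo-old males, and every mouse carried *ChAT-Cre* and 1 *RiboTag* fx allele, which puts a hemagglutinin tag on the ribosomes of cells that express choline acetyltransferase, so that their mRNA can be pulled down by immunoprecipitation (IP). The genotype *ChAT-BKO* added floxed *Bmal1* on both chromosomes (*Bmal1 fx/fx*), whereas the controls (*ChAT-Cre;RiboTag fx/+*) had no floxed *Bmal1*. Spinal cords were collected at Zeitgeber Time (ZT) 8, in the light/rest period, and at ZT20, in the dark/active period, with 6 IP libraries in each of the 4 groups and 1 spinal cord per library. A further library was made from a pooled input of whole spinal cord RNA. The Cre is driven by the choline acetyltransferase gene, and *Bmal1* in other tissues, the adrenal gland among them, and blood hormone levels were not part of these data.

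Glucocorticoids are steroid hormones of the adrenal cortex, released in a daily rhythm that in nocturnal animals rises towards the onset of darkness. They enter cells and bind the glucocorticoid receptor (*Nr3c1*) or the mineralocorticoid receptor (*Nr3c2*), which are held ready by chaperones of the HSP90 family, move to the nucleus, and act on transcription at short palindromic DNA elements. The responsive genes include feedback inhibitors of the receptor itself, such as *Fkbp5*, and regulators of transcription, kinase signaling, and fuel use, and their transcripts have been used as readouts of hormone exposure in many tissues. The data were collected to ask what loss of the cholinergic neuron clock does at 2 times of day, and for these 10 genes the same libraries show how transcripts that answer a systemic hormone stood at each time with and without *Bmal1*.

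Total counts ran from 4.04 M to 31.7 M per IP library (M stands for 1e+06 counts), with group medians between 7.62 M and 15.1 M. The transcript of the deleted gene, *Arntl* (*Bmal1*), was lower in *ChAT-BKO* neurons at ZT8 (log2 fold change -1.64) and at ZT20 (-2.08), and all 6 *ChAT-BKO* libraries lay below all 6 control libraries at each time. *Dbp*, a clock output gene, was lower at ZT20 than at ZT8 (log2 fold change -0.80 over both genotypes, adjusted p = 4.02e-07 from edgeR). All 6 cholinergic markers were above input, by a median of 3.37 on the log2 scale, while the markers of astrocytes, oligodendrocytes, microglia, endothelial cells, fibroblasts and mural cells, and skeletal muscle were all below it, with list medians from -3.98 to -1.60. In 5 libraries the 6 skeletal muscle markers summed to over 50 CPM (1 control and 1 *ChAT-BKO* library at ZT8 and 3 *ChAT-BKO* libraries at ZT20, up to 133 CPM). Results that change without these 5 libraries are given with and without them.

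The 10 genes differed widely in abundance. Per kilobase of exon, the mean level over the 24 IP libraries was 78.2 CPM for *Tsc22d3* (GILZ, a leucine zipper protein that mediates anti-inflammatory effects of the hormone), higher than that of 96.4% of the tested genes with a known length. It was followed by *Fkbp5* at 12.2 CPM per kb, *Errfi1* at 9.24, *Klf9* at 6.48, *Nr3c2* at 4.73, *Nr3c1* at 2.88, *Sgk1* at 2.19, *Zbtb16* at 2.05, *Pdk4* at 0.285, and *Hif3a* at 0.117 CPM per kb. The ranges over libraries left clear gaps at 3 steps of this order, namely between *Tsc22d3* and *Fkbp5*, between *Nr3c2* and *Nr3c1*, and between *Zbtb16* and *Pdk4*. At every other step the ranges of the neighbouring genes overlapped. The mineralocorticoid receptor transcript was thus the more abundant of the receptor pair per unit length, at 3.90 to 6.43 CPM per kb against 2.13 to 3.34 for the glucocorticoid receptor. *Hif3a* and *Pdk4* were scarce, with 236 and 320 counts in total over all 24 IP libraries, and *Hif3a* was at 0 counts in 1 control library at ZT20.

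**Figure D1:**
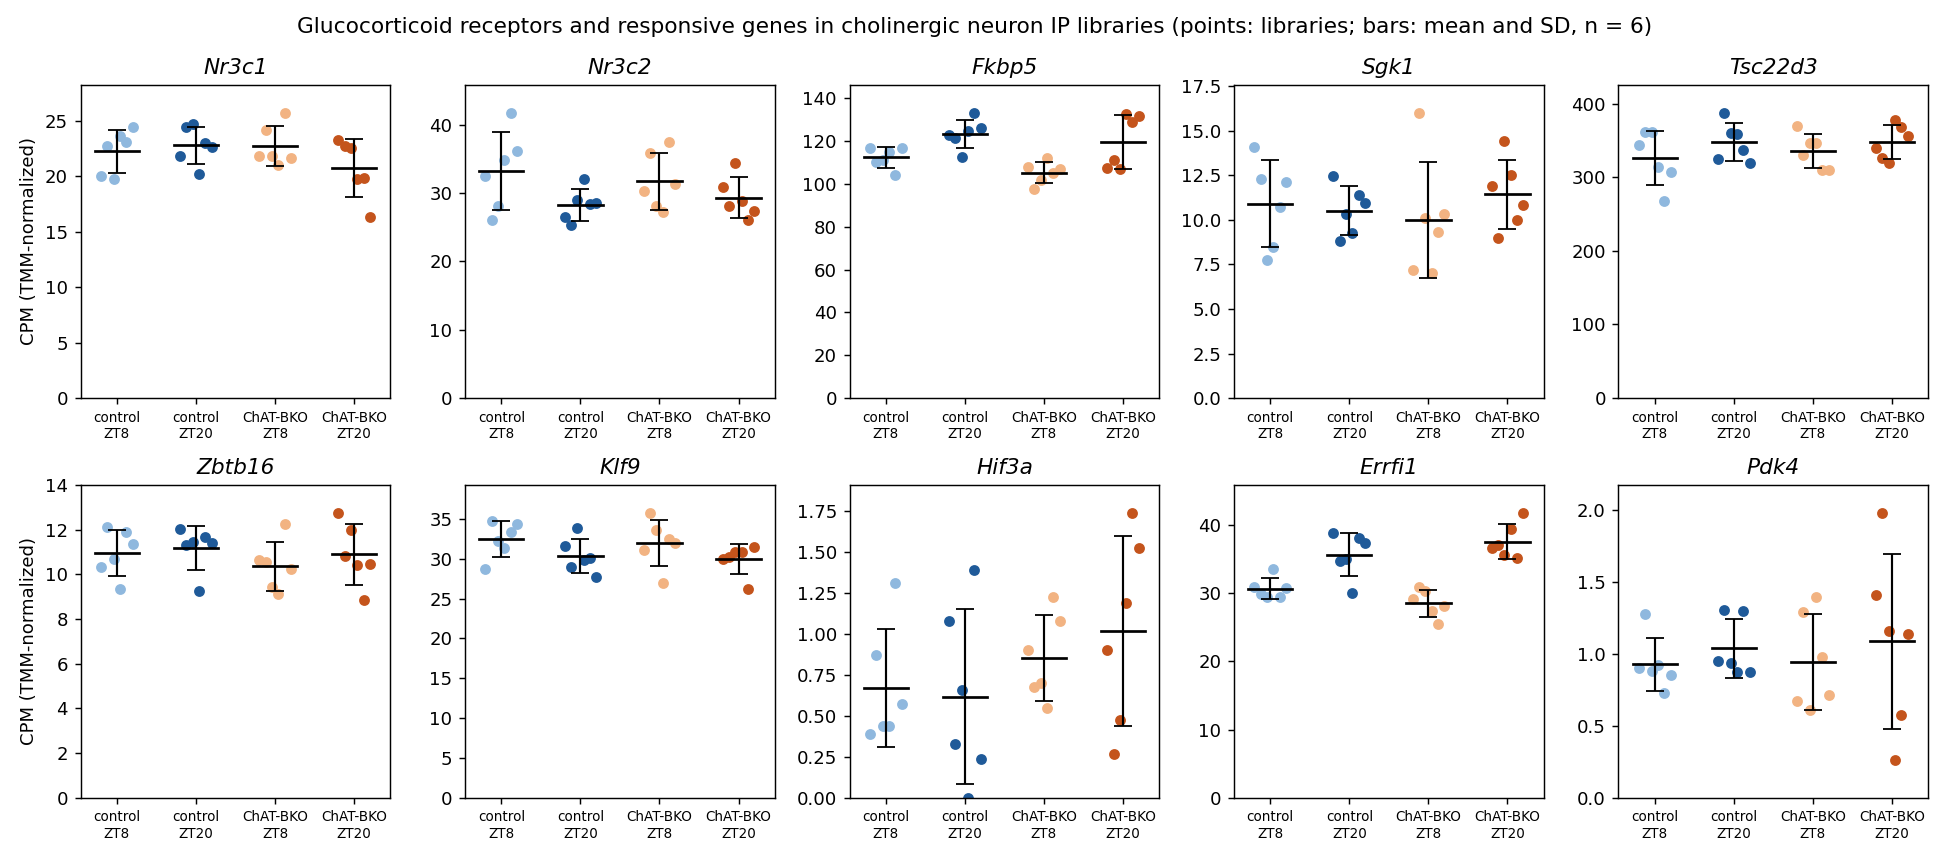
CPM (y axis, linear, from 0) of each of the 10 genes in the 6 IP libraries of each group (points), with the group mean and SD (black). *Errfi1* stands at 25.4 to 33.5 CPM at ZT8 and at 30.0 to 41.7 CPM at ZT20, and the 4 groups of the receptor genes overlap.

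Set against whole spinal cord, 3 of the 10 transcripts had a higher level on cholinergic neuron ribosomes, against 44.3% of 19711 genes with a ratio. *Fkbp5*, a cochaperone that lowers the affinity of the receptor for its hormone, had a log2 ratio of IP over input of 2.24, above the smallest ratio among the 6 cholinergic markers (1.70). *Tsc22d3* had a ratio of 1.43. *Nr3c2* had a ratio of 0.33, which turned to -0.12 when raw library totals replaced TMM scaling, so its direction depended on the scaling and 2 of the 10 were above input under both. The other 7 transcripts lay below input, with log2 ratios of -0.53 for *Errfi1*, -0.90 for *Zbtb16*, -1.22 for *Nr3c1*, -1.26 for *Klf9*, -1.84 for *Sgk1*, -2.22 for *Hif3a*, and -3.42 for *Pdk4*. Within the range of the glial and endothelial markers (-5.85 to -0.91) were *Nr3c1*, *Klf9*, *Sgk1*, *Hif3a*, and *Pdk4*, which encodes a kinase that inhibits pyruvate dehydrogenase. The upper end of that range was the microglial marker *Aif1*, and the next highest was the astrocyte marker *Aldh1l1* (-2.20). The median of the 10 genes was -1.06, and that of all genes was -0.21. The input was 1 pooled library, so that these ratios have no replicate error on the input side and were not tested. In such bulk libraries, fewer cells of a type and less RNA per cell cannot be told apart.

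**Figure D2:**
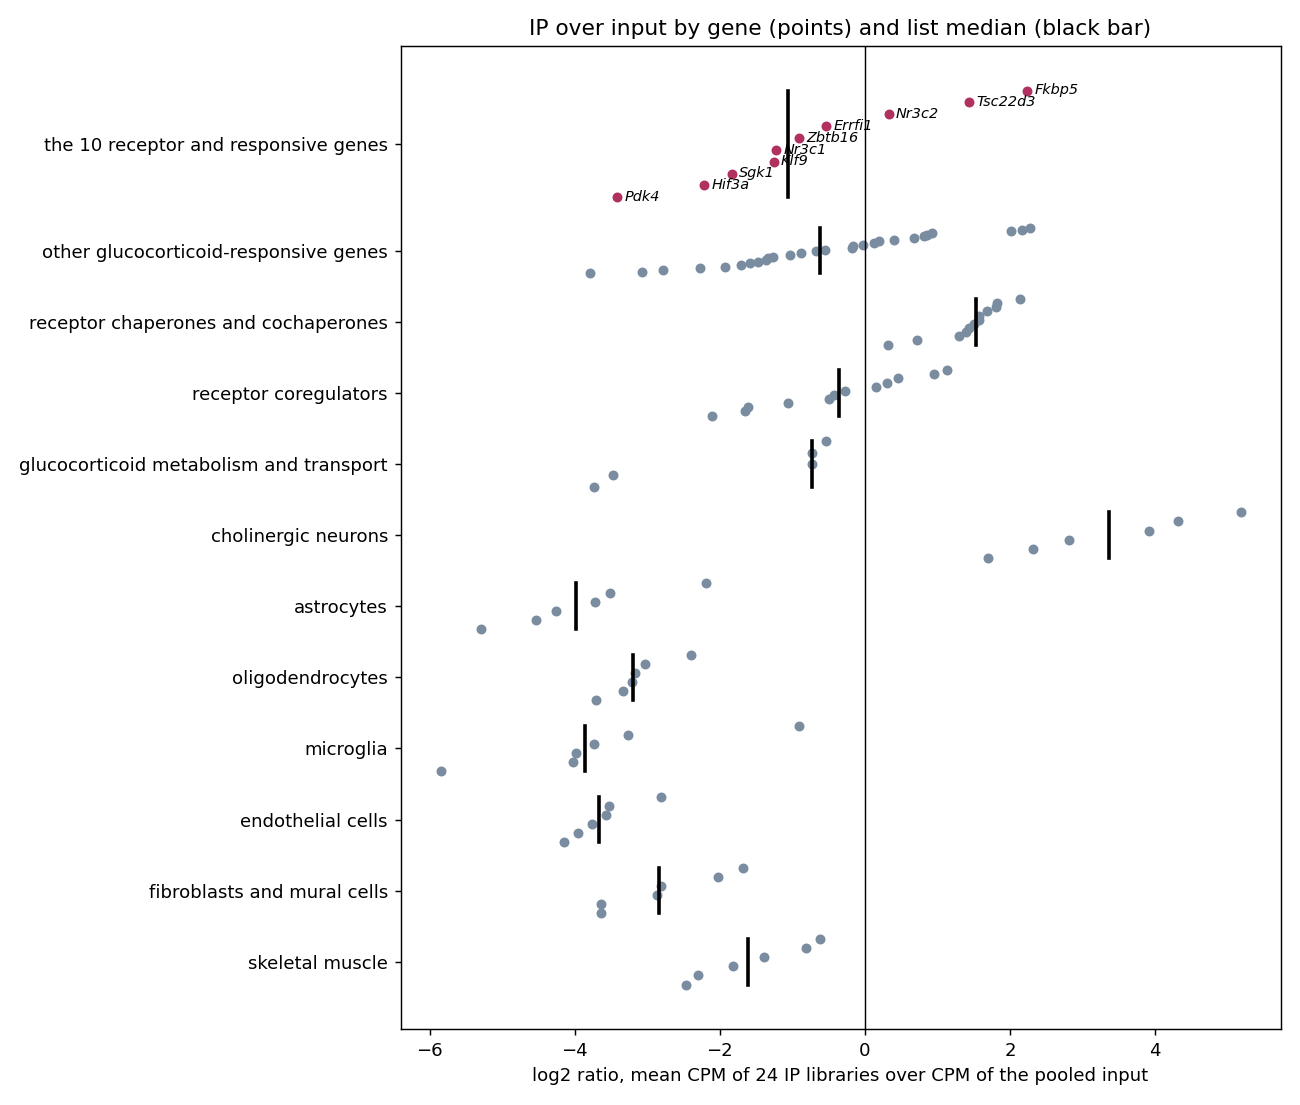
Log2 ratio of the mean CPM of 24 IP libraries to the CPM of the pooled input (x axis) for single genes (points), with the median of each list (black bar). *Fkbp5* (2.24) and *Tsc22d3* (1.43) lie among the enriched genes. The genes from *Zbtb16* (-0.90) down to *Pdk4* (-3.42) lie within the range of the markers of other cell types.

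The promoters of the responsive genes were searched for the receptor's palindromic element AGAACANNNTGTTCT, for a single arm of it (AGAACA, or TGTTCT on the other strand), and for the E-box CACGTG that the BMAL1 and CLOCK pair recognizes. RefSeq promoters on GRCm38.p6 span 250 bases before to 50 bases after each annotated start, and 16 of them belong to 8 of the 10 genes. *Nr3c1* and *Zbtb16* have no entry. The full palindrome occurred in 3 of 32851 promoters (0.00913%), and 1 of the 3 belongs to *Sgk1*. Single arms occurred in 19% and E-boxes in 7.15% of all promoters. The windows below show, with the match in capitals, the palindrome of the 5th of 6 *Sgk1* promoters (plus strand, position -189 from the start), the E-box of the *Fkbp5* promoter (minus strand, position -169), and a single arm in the 2nd of 3 *Tsc22d3* promoters (minus strand, position -185).
Sgk1 at chr10:21993679-21993737: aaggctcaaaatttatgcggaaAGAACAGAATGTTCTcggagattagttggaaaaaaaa
Fkbp5 at chr17:28486291-28486340: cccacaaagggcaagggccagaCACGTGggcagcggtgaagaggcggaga
Tsc22d3 at chrX:140600680-140600729: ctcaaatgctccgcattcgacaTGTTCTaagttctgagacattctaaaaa
None of the 3 windows overlaps an exon of GENCODE M21, and those of *Sgk1* and *Fkbp5* lie within the span of the gene, upstream of an internal start. The same *Sgk1* promoter also held an E-box at position -246, which overlaps a further single arm, and single arms occurred in the 1st and 4th *Sgk1* promoters. The promoters of 5 genes (*Nr3c2*, *Klf9*, *Hif3a*, *Errfi1*, and *Pdk4*) held none of these letters. The search took exact letters within these promoters, so elements with other letters or farther from the starts were not covered.

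Between the 2 times of day, *Errfi1* and *Fkbp5* rose and neither receptor passed the test. The groups were compared with edgeR's quasi-likelihood test, with p-values adjusted after Benjamini and Hochberg across the 21738 genes tested, and genes were called at an adjusted p under 0.05. Over both genotypes, with genotype as a term and all 24 libraries, 2 of the 10 genes were called, both higher at ZT20, against 2.69% of all genes called in either direction and 1.69% called higher. Within *ChAT-BKO* neurons 1 of 10 was called (*Errfi1*), against 0.285% of all genes, and within controls 0 of 10 were called, against 0.115%. In controls 3 of the 10 (*Errfi1*, *Fkbp5*, and *Nr3c2*) had an unadjusted p under 0.05, against 8.25% of all genes, and DESeq2 and limma voom also called 0. The comparison over both genotypes uses the same libraries as the others and is not independent of them. The 10 genes and the lists were chosen with earlier results of these data known, so their counts of calls are a description. The median log2 fold change of the 10 genes over both genotypes was 0.08, with 7 of 10 positive, against 0.00 and 50.2% of all genes.

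*Errfi1* (MIG6, chr4:150853919-150868892, plus strand, an inhibitor of the EGF receptor) had the largest change in relation to its error. In controls it had a lowest, median, and highest value of 29.4, 30.3, and 33.5 CPM at ZT8 and of 30.0, 36.1, and 38.8 CPM at ZT20. In *ChAT-BKO* neurons these values were 25.4, 28.6, and 30.8 CPM at ZT8 and 35.1, 36.8, and 41.7 CPM at ZT20. All 6 *ChAT-BKO* libraries of ZT20 were thus above all 6 of ZT8 without overlap, and in controls 5 of 6 libraries of ZT20 were above all of ZT8. Over both genotypes, *Errfi1* was higher at ZT20 by 23.0% (95% interval 15.1 to 31.4%), or 0.30 on the log2 scale (SE 0.05, edgeR adjusted p = 0.000267), and 11 of 12 libraries of ZT20 exceeded all 12 of ZT8. Within *ChAT-BKO* neurons the log2 fold change was 0.38 (SE 0.07, adjusted p = 0.0108 from edgeR), or 30.5% (18.6 to 43.6%). Within controls it was 0.22 (SE 0.07, unadjusted p = 0.00523, adjusted p = 0.365 from edgeR), or 16.3% (5.23 to 28.6%). The difference between the genotypes in this change was 0.17 (SE 0.09, unadjusted p = 0.0742, adjusted p = 1.00 from edgeR), so that a larger change in *ChAT-BKO* neurons was not shown. Without the 5 libraries over 50 CPM of muscle markers, *Errfi1* kept a log2 fold change of 0.36 in *ChAT-BKO* neurons, with 3 libraries left at ZT20, but was no longer called (adjusted p = 0.105 from edgeR). Over both genotypes it was called without them (0.27, adjusted p = 0.00953 from edgeR).

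*Fkbp5* (chr17:28399094-28517527, minus strand) moved in the same direction by a smaller step. In controls it had a lowest, median, and highest value of 104, 113, and 117 CPM at ZT8 and of 113, 124, and 133 CPM at ZT20. In *ChAT-BKO* neurons it had values of 97.7, 106, and 112 CPM at ZT8 and of 107, 120, and 133 CPM at ZT20. The times overlapped in both genotypes, with 5 of 6 control and 3 of 6 *ChAT-BKO* libraries of ZT20 above all those of ZT8. Over both genotypes, *Fkbp5* was higher at ZT20 by 11.5% (95% interval 5.33 to 18.1%), or 0.16 on the log2 scale (SE 0.04, edgeR adjusted p = 0.0274). Within a genotype it was not called, at 0.14 in controls (adjusted p = 0.466) and 0.18 in *ChAT-BKO* neurons (adjusted p = 0.350, both from edgeR). The call over both genotypes was near the threshold. It was lost (adjusted p from edgeR) without replicate 2 of the controls at ZT8 (0.0503), replicate 2 of *ChAT-BKO* at ZT8 (0.0513), or replicate 5 (0.0502) or 6 (0.0520) of *ChAT-BKO* at ZT20, while the log2 fold change stayed between 0.14 and 0.17 over all 24 omissions.

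Endothelial markers leaned higher at ZT20 as well, though not all of them. Their summed level ran from 8.13 to 13.3 CPM in controls and from 8.72 to 13.5 CPM in *ChAT-BKO* neurons at ZT8, and from 11.3 to 20.5 and from 11.4 to 17.1 CPM at ZT20. Of the 6 endothelial markers, 1 was called higher over both genotypes, against 1.69% of all genes. It was *Cldn5*, a tight junction gene (log2 fold change 0.73, adjusted p = 0.00167 from edgeR). The rest ran from -0.04 for *Tek* and 0.06 for *Pecam1* to 0.50 for *Cdh5*. The list median was 0.28, against 0.00 for all genes, and no marker was at 0 in any library. Medians of the other lists over both genotypes were 0.17 for fibroblasts and mural cells, 0.12 for astrocytes, 0.04 for cholinergic neurons, 0.02 for oligodendrocytes, -0.01 for microglia, and -0.21 for skeletal muscle, with 0 markers called in each by edgeR and by limma voom, and 1 (*Isl1*, a cholinergic marker) by DESeq2. The part of these cells in the changes of *Errfi1* and *Fkbp5* was not tested.

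The receptors showed no call at any time or in either genotype. *Nr3c1* in controls had medians of 22.9 CPM at ZT8 and 22.8 CPM at ZT20, and in *ChAT-BKO* neurons of 21.9 and 21.2 CPM, and its lowest and highest libraries were 16.4 and 25.7 CPM. Its log2 fold change between the times was -0.03 over both genotypes (95% interval -0.15 to 0.08). *Nr3c2* had a lowest, median, and highest value of 26.1, 33.7, and 41.6 CPM in controls at ZT8 and of 25.2, 28.4, and 32.0 CPM at ZT20. In *ChAT-BKO* neurons it had values of 27.3, 30.8, and 37.4 CPM at ZT8 and of 26.0, 28.4, and 34.4 CPM at ZT20. The groups overlapped, and 10 of the 12 libraries of ZT20 lay within the range of ZT8 over both genotypes. The log2 fold change over both genotypes was -0.16 (SE 0.07, unadjusted p = 0.0282, adjusted p = 0.274 from edgeR). *Nr3c2* was called lower at ZT20 in 2 alternative fits, namely with the dependence of log2 CPM on log2 gene length in each library (its length slope) as a covariate (-0.17, adjusted p = 0.00882) and without the 5 libraries with high muscle markers (-0.27, adjusted p = 0.0331, both from edgeR).

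The remaining 6 responsive genes were not called by time. *Tsc22d3* lay between 268 and 387 CPM over all libraries, and its log2 fold change over both genotypes was 0.07 (SE 0.05, adjusted p = 0.534 from edgeR). With the length slope as a covariate it was called (0.08, adjusted p = 0.0136 from edgeR). *Klf9*, a Krüppel-like transcription factor, lay between 26.2 and 35.7 CPM, at -0.09 (unadjusted p = 0.0513, adjusted p = 0.360 from edgeR), and only 1 of the 12 libraries of ZT20 was above the median of ZT8. *Zbtb16* (PLZF, a zinc finger transcription factor) lay between 8.87 and 12.7 CPM, at 0.08 (95% interval -0.06 to 0.21). *Sgk1*, a kinase that acts on ion channels and transporters, lay between 7.05 and 16.0 CPM, at 0.08 (-0.16 to 0.32). For the scarce pair the intervals were wide, at 0.19 for *Pdk4* (-0.22 to 0.61) and 0.13 for *Hif3a*, a hypoxia-inducible factor (-0.55 to 0.80), so that a change of this size was not detectable at this depth.

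**Figure D3:**
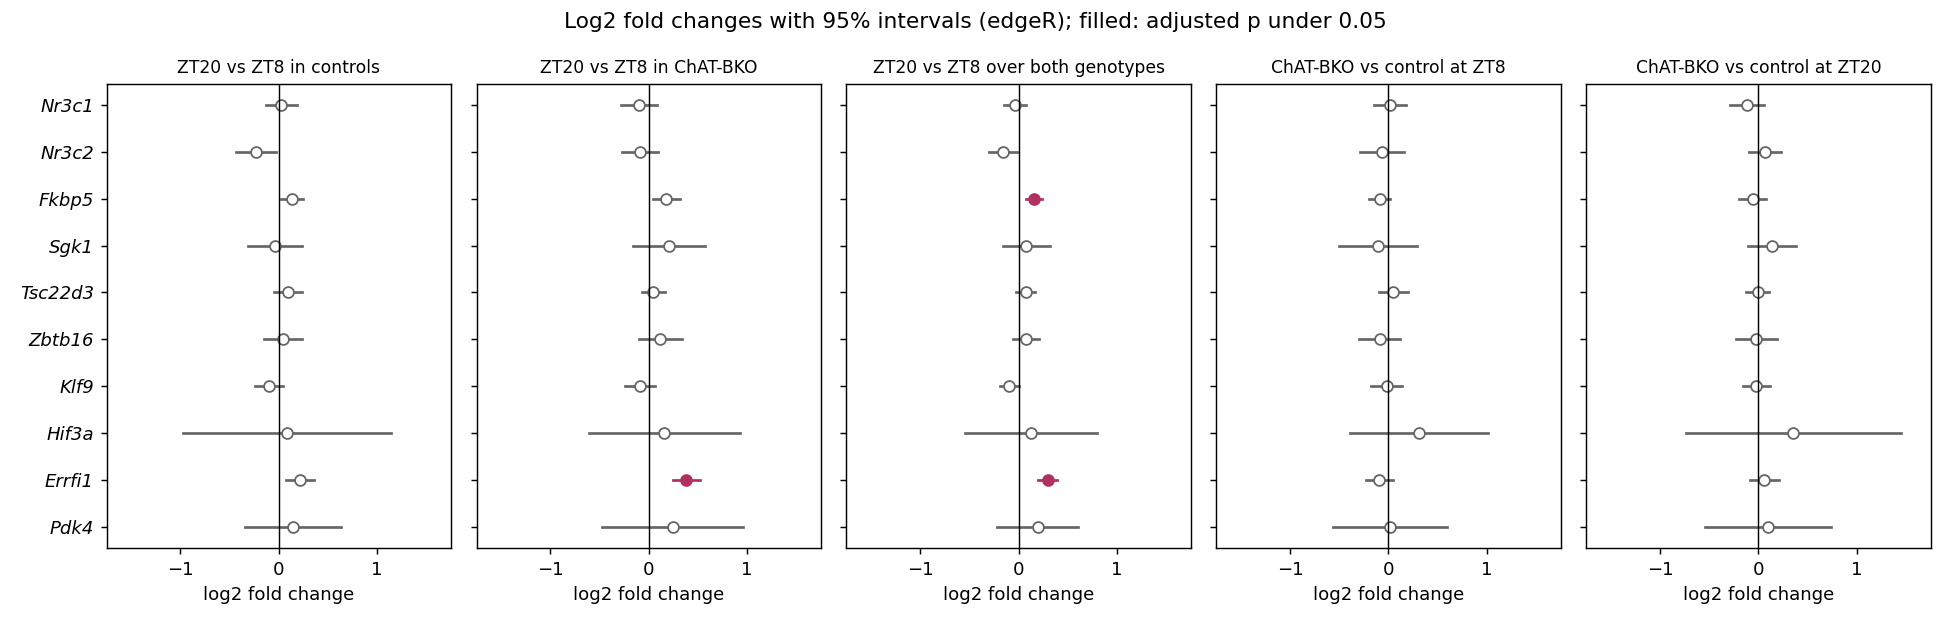
Log2 fold changes (x axis) of the 10 genes with 95% intervals from edgeR in 5 comparisons, filled where the adjusted p was under 0.05. *Errfi1* is filled in *ChAT-BKO* neurons and over both genotypes, *Fkbp5* over both genotypes, and the comparisons between genotypes have no filled point.

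With *Bmal1* deletion, 0 of the 10 genes were called at ZT8, against 0.184% of all genes, and 0 of 10 at ZT20, against 0.23% of all genes, by edgeR. DESeq2 and limma voom also called 0 at each time, and 0 of the 10 had an unadjusted p under 0.05 in edgeR, against 4.83% of all genes at ZT8 and 6.28% at ZT20. The intervals give the uncertainty of each gene on its own and refer to its level in the IP libraries. Among the genes that follow, *Nr3c1*, *Klf9*, *Zbtb16*, *Errfi1*, and *Sgk1* lay below input, and *Nr3c2* did so with raw library totals. The part of other cells in their levels was not tested, so the intervals do not bound a change within the cholinergic neurons. For the 7 genes other than *Sgk1*, *Pdk4*, and *Hif3a*, the log2 fold changes lay between -0.12 and 0.06 at the 2 times, and their 95% intervals reached from -0.30 to 0.22. *Errfi1* was at -0.10 at ZT8 (SE 0.07), where 4 of 6 *ChAT-BKO* libraries lay below all controls, and at 0.06 at ZT20 (SE 0.07). *Fkbp5* was at -0.09 (SE 0.05) and -0.06 (SE 0.06), *Nr3c1* at 0.02 (SE 0.08) and -0.12 (SE 0.08), *Nr3c2* at -0.07 (SE 0.11) and 0.06 (SE 0.08), and *Tsc22d3* at 0.05 (SE 0.07) and -0.01 (SE 0.06), at ZT8 and ZT20 respectively. *Sgk1* was at -0.10 (95% interval -0.50 to 0.29) and 0.14 (-0.11 to 0.38). For the difference of the genotype effect between ZT20 and ZT8, edgeR and DESeq2 called 0 of the 10 genes and 0 of all genes (0%), with 0 of 10 and 3.9% of all genes at an unadjusted p under 0.05 in edgeR.

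Further glucocorticoid-responsive genes, a list of 28 chosen with earlier results of these data known, were read for the same comparisons as a description. Over both genotypes their median log2 fold change was 0.09, with 20 of 28 positive, against 0.00 and 50.2% of all genes. Of the 28, 9 had an unadjusted p under 0.05 in edgeR (14.1% of all genes did). Called higher at ZT20 were 3 of 28 and called lower 0, against 1.69% of all genes called higher and 2.69% in either direction. The 3 were *Cdkn1a* (p21, an inhibitor of the cell cycle that is also a target of p53), *Irs2* (an adaptor of the insulin receptor), and *Klf15* (a Krüppel-like factor of amino acid and fuel metabolism). *Irs2* had means of 57.9 ± 3.68 CPM (SD, n = 6) in controls and 60.2 ± 2.77 in *ChAT-BKO* neurons at ZT8 and of 65.8 ± 4.32 and 69.4 ± 6.98 at ZT20, or 0.20 higher on the log2 scale (SE 0.04, edgeR adjusted p = 0.00727). *Klf15* had means of 10.1 ± 1.24 and 10.3 ± 2.41 CPM at ZT8 and of 13.0 ± 1.70 and 13.3 ± 1.24 CPM at ZT20, or 0.36 higher on the log2 scale (SE 0.08, edgeR adjusted p = 0.0143). Neither was called without the 5 libraries with high muscle markers (adjusted p = 0.0948 and 0.150 from edgeR), with log2 fold changes of 0.15 and 0.29. *Per1*, a clock gene that the receptor also induces, was not called (0.10, SE 0.06), nor were *Dusp1* (0.27, SE 0.11) and *Ddit4* (0.13, SE 0.07), 3 genes named after their values were seen.

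*Cdkn1a* was the gene of this list that differed by genotype. In controls it was at 3.15 ± 0.80 CPM (SD, n = 6) at ZT8 and 5.88 ± 1.54 CPM at ZT20, and in *ChAT-BKO* neurons at 13.4 ± 1.48 and 20.0 ± 2.62 CPM. At each time the lowest *ChAT-BKO* library (11.4 and 16.7 CPM) was above the highest control (4.25 and 7.70 CPM). The log2 fold change with *Bmal1* deletion was 2.10 at ZT8 (SE 0.14, adjusted p = 8.22e-08 from edgeR) and 1.77 at ZT20 (SE 0.15, adjusted p = 6.09e-07 from edgeR), and the difference between the times was -0.31 (SE 0.22, unadjusted p = 0.165). *Cdkn1a* was also higher at ZT20 over both genotypes (0.68, SE 0.11, adjusted p = 0.000310 from edgeR) and within *ChAT-BKO* neurons (0.56, SE 0.10, adjusted p = 0.0160 from edgeR). The latter call was lost without replicate 1 of *ChAT-BKO* at ZT8 (adjusted p = 0.0519 from edgeR). In controls the time difference was 0.89 (SE 0.20, adjusted p = 0.126 from edgeR), a difference that DESeq2 called and limma voom did not. At ZT20 the summed level of the 6 muscle markers ran from 4.77 to 21.4 CPM in controls and from 3.43 to 79.2 CPM in *ChAT-BKO* neurons, and edgeR called 2 of the 6 higher in *ChAT-BKO* (*Acta1* and *Tnnt3*). Without the 5 libraries with high muscle markers, the *Cdkn1a* difference kept its size, at 2.04 at ZT8 (adjusted p = 1.12e-07 from edgeR) and 1.83 at ZT20 (adjusted p = 2.37e-06 from edgeR). The other 27 genes of the list were not called between genotypes at either time by edgeR, DESeq2, or limma voom.

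**Figure D4:**
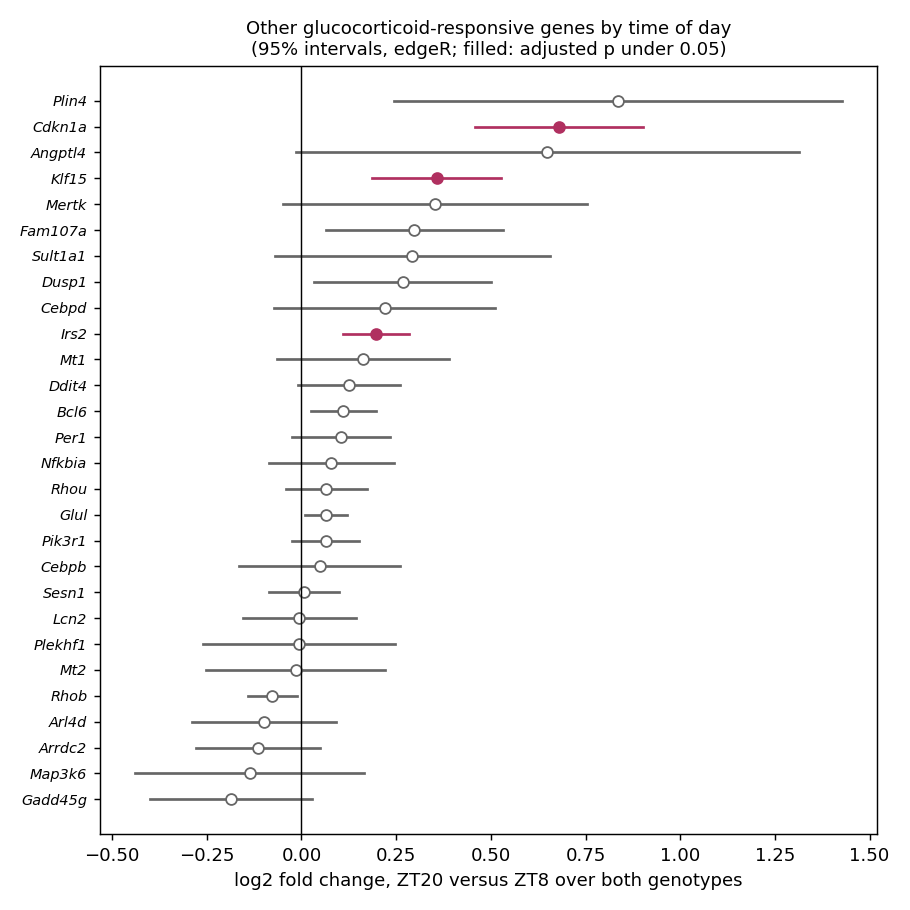
Log2 fold change from ZT8 to ZT20 over both genotypes (x axis) for 28 further glucocorticoid-responsive genes, with 95% intervals from edgeR, filled where the adjusted p was under 0.05. *Cdkn1a* (0.68), *Klf15* (0.36), and *Irs2* (0.20) are filled, and 20 of the 28 points lie above 0.

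Among the partners of the receptors, 1 gene was called. The 12 chaperones and cochaperones had log2 ratios over input from 0.31 to 2.14, of which the lowest, that of *Ptges3* (p23), turned to -0.14 with raw library totals. Of these, 4 had an unadjusted p under 0.05 over both genotypes in edgeR, beside 14.1% of all genes. Called higher at ZT20 was 1 of the 12, against 1.69% of all genes called higher and 2.69% in either direction. This was *Dnaja1*, an HSP40 cochaperone (0.15, SE 0.04, adjusted p = 0.0393 from edgeR). The call was lost on leaving out any of 17 of the 24 libraries (adjusted p up to 0.0793 from edgeR). It was also lost with DESeq2's size factors in edgeR (0.0508) and with the replicate block (0.0537). The list median was 0.06. Of 12 receptor coregulators, 0 were called by edgeR, DESeq2, or limma voom in any comparison. Over both genotypes 0 of the 12 had an unadjusted p under 0.05, and those with the smallest p were *Med1* (-0.13, SE 0.08) and *Ncoa2* (-0.14, SE 0.09). With *Bmal1* deletion at ZT20, 11 of the 12 coregulators were positive, against 48.3% of all genes, with a list median of 0.07 against -0.006. At that time 2 of the 12 had an unadjusted p under 0.05 in edgeR, beside 6.28% of all genes. DESeq2 gave 0 such genes and limma voom gave 2. At ZT8 the direction was the opposite, with 3 coregulators positive and 9 negative and a list median of -0.05. There, 1 of the 12 had an unadjusted p under 0.05 in edgeR, beside 4.83% of all genes. From ZT8 to ZT20 in controls, 1 coregulator was positive and 11 were negative, with a list median of -0.10. That comparison shares the control libraries of ZT20 with the genotype comparison. The chaperones leaned lower with *Bmal1* deletion at both times, with 10 of 12 negative at ZT8 (list median -0.03) and 11 at ZT20 (-0.05). None of the chaperones was called between genotypes. Of the genes of glucocorticoid metabolism and transport, 5 of 6 were tested and 0 were called by edgeR, DESeq2, or limma voom in any comparison. Over both genotypes 1 of the 5 had an unadjusted p under 0.05 in edgeR, beside 14.1% of all genes. It was *Srd5a1* (-0.29, SE 0.11, adjusted p = 0.216 from edgeR), a reductase that inactivates the hormone, followed by *Abcb1a* (0.33, SE 0.20), an efflux pump. All 5 lay below input, with a median of -0.73.

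The genes whose pattern over the 24 libraries was most like that of *Errfi1* were *Dnajb4*, an HSP40 cochaperone, *Elovl6*, a fatty acid elongase, and *Dbndd2*. Likeness was measured as the root mean square difference of centred log2 CPM, which was 0.10, 0.10, and 0.11 for the 3 genes, against a median of 0.26 over 13720 genes with a mean of at least 1 CPM. *Dnajb4* had means of 46.8 ± 1.77 CPM (SD, n = 6) in controls and 46.5 ± 2.64 in *ChAT-BKO* neurons at ZT8, and of 55.2 ± 2.58 and 57.0 ± 4.53 CPM at ZT20. *Elovl6* had means of 36.5 ± 2.12 and 37.0 ± 2.15 CPM at ZT8 and of 45.0 ± 3.64 and 47.9 ± 5.31 CPM at ZT20. Since the genes were chosen for this likeness, their time differences are a description, with log2 fold changes over both genotypes of 0.26 for *Dnajb4*, 0.33 for *Elovl6*, and 0.22 for *Dbndd2*, beside 0.30 for *Errfi1*.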

How the data were processed

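Per the labels and the study's methods, the authors aligned reads to mm10 with STAR 2.7.5 and deposited estimated counts per gene from RSEM for 24 IP libraries and 1 pooled input. Of these values, 6.11% were not whole and all were rounded, and a gene was kept if its IP libraries together held 10 or more counts. The authors tested with DESeq2 1.32.0. Here, libraries were normalized by TMM and each comparison was fitted with edgeR 4.0.16 in R 4.3.3 (two-sided), after tests on simulated data. In these, a log2 change of 0.3 in genes that were not scarce was called for 82% of 100 genes over both genotypes. It was called for 37% between times in controls, 27% in *ChAT-BKO*, 35% and 39% between genotypes at ZT8 and ZT20, and 16% for the difference of effects. Each simulated set also held 100 genes with a log2 change of 1, of which 99% or 100% were called, and this eases the adjusted threshold. Where fewer genes change, the share called at 0.3 can be lower than these rates. Alternatives were DESeq2 1.42.0, its size factors, other filters, a replicate block, limma 3.58.1 voom with quality weights, an adjusted p under 0.01, a length slope covariate, all 24 libraries, and each library left out. Leaving out 5 libraries with high muscle markers was chosen after seeing the data. CPM used TMM-scaled sizes, and lengths are union exons of GENCODE M21.

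The 10 genes, the lists, and the tests were chosen with earlier results of these data known. Genes named besides the 10 were *Arntl*, *Dbp*, and *Nr1d1* as checks (*Nr1d1* had a log2 fold change of -0.72 at ZT8 with *Bmal1* deletion, adjusted p = 4.92e-05 from edgeR), up to 4 called genes of each list or else the 2 with the smallest p over both genotypes, and the 3 patterns nearest to the gene of the set with the smallest p. Replicate numbers were checked for pairing, and the correlations of same-numbered libraries ran from -0.08 to 0.16. The 60 pairs of replicates differed by more than sampling noise (chi-square per degree of freedom 1.80 to 25.4).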

Additional observations from a re-analysis of the deposited data

Results flagged for a closer look

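Among 40 groups of 6 values (10 genes in 4 groups), 5 had a library far from the rest, its gap to the nearest other library taking more of the range of the group than Dixon's 95% limit for 6 values. Chance gives about 1 in 20 groups. *Errfi1* was at 33.5 CPM in replicate 4 of the controls at ZT8 (0.651 of the range), the highest value of that gene at ZT8. *Zbtb16* was at 9.26 CPM in replicate 4 of the controls at ZT20 (0.743), below the rest of its group. *Klf9* was at 26.2 CPM in replicate 5 of *ChAT-BKO* at ZT20 (0.712), also below the rest. *Sgk1* was at 16.0 CPM in replicate 2 of *ChAT-BKO* at ZT8 (0.631), the highest of all 24 libraries. *Pdk4* was at 1.28 CPM in replicate 2 of the controls at ZT8 (0.643), a library that also had a muscle marker sum of 83.6 CPM.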

How the results depend on the processing

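Of 663 recomputed log2 fold changes of the 10 genes and of the called genes named, under alternatives other than leaving out 1 library, 622 kept their direction and their side of the threshold, 9 lost a call, 4 gained one, and 28 changed sign. Of 1260 with 1 library left out, the numbers were 1168, 32, 0, and 60. No called value changed sign. The causes were not tested. A stricter threshold can only leave fewer calls. With 1 library left out, the number of genes called fell in some cases and rose in others. *Errfi1* was called over both genotypes under every alternative (adjusted p up to 0.00953) and with any library left out (up to 0.000947). Within *ChAT-BKO* neurons it was called with any library left out (up to 0.0368). *Hif3a* gave no value under filterByExpr for time in controls and for genotype at ZT8, where that filter removed it. The same-numbered libraries were not shown to be paired, and in 4 comparisons 0 to 2 of 6 libraries correlated best with their own number.

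Genes called from ZT8 to ZT20 in controls (25) numbered 8 at an adjusted p under 0.01, 127 with DESeq2, 371 with the length slope, and 86 with the replicate block. In *ChAT-BKO* neurons (62) they numbered 24, 218, and 484, and 140 with all 24 libraries in the fit. Over both genotypes (585) they numbered 253, 971, and 1563. Between genotypes at ZT8 (40) they numbered 18, 70, and 166, and 69 with the block, and at ZT20 (50) they numbered 25, 93, and 167, and 27 without the libraries with high muscle markers. For the difference of effects (0) the length slope gave 1. Of the 10 genes, those called in *ChAT-BKO* neurons (1) numbered 0 at an adjusted p under 0.01, 0 without the muscle marker libraries, and 2 with the length slope, which added *Fkbp5* (0.20, adjusted p = 0.00728 from edgeR). Over both genotypes (2) they numbered 1 at an adjusted p under 0.01 and 4 with the length slope. With 1 library left out, genes called ranged from 11 to 28 in controls, 33 to 56 in *ChAT-BKO*, 448 to 628 over both genotypes, 19 to 42 at ZT8, 29 to 69 at ZT20, and 0 to 0 for the difference. The 10 genes kept their counts of calls, except for 1 to 2 over both genotypes.

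Signs changed for values near 0 or with wide intervals. For time in controls, *Hif3a* was at -0.043 with DESeq2, -0.32 with the replicate block, and -0.38 with voom, and *Sgk1* was at 0.020 with voom and 0.011 without the muscle marker libraries. Over both genotypes *Hif3a* was at -0.057 with the block and -0.14 with voom. For genotype at ZT8, voom gave 0.0039 for *Klf9* and -0.060 for *Pdk4*, and the length slope gave -0.0047 for *Nr3c1*. At ZT20 the length slope gave 0.031 for *Tsc22d3* and -0.056 for *Pdk4*. For the difference of effects voom gave -0.020 for *Klf9*. Without the muscle marker libraries, time gave -0.038 for *Sgk1* and -0.047 for *Zbtb16* in *ChAT-BKO* and -0.0090 for *Sgk1* over both genotypes. Genotype then gave 0.037 for *Sgk1*, 0.046 for *Klf9*, and -0.018 for *Pdk4* at ZT8, and -0.035 for *Nr3c2*, -0.019 for *Sgk1*, 0.031 for *Tsc22d3*, and -0.13 for *Pdk4* at ZT20. The difference of effects then gave -0.047 for *Sgk1*, -0.13 for *Zbtb16*, -0.099 for *Klf9*, -0.049 for *Hif3a*, and -0.11 for *Pdk4*. Raw totals gave -0.12 for the IP over input ratio of *Nr3c2* and -0.14 for that of *Ptges3*.

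With 1 library left out, time in controls ranged from -0.44 to 0.30 for *Hif3a*, -0.12 to 0.033 for *Sgk1*, -0.0091 to 0.090 for *Zbtb16*, and -0.0019 to 0.061 for *Nr3c1*. *Hif3a* ranged from -0.017 to 0.37 in *ChAT-BKO* and -0.096 to 0.23 over both genotypes. Genotype at ZT8 ranged from -0.15 to 0.15 for *Pdk4*, -0.061 to 0.030 for *Klf9*, -0.00091 to 0.080 for *Tsc22d3*, and -0.014 to 0.046 for *Nr3c1*. At ZT20 it ranged from -0.088 to 0.27 for *Pdk4*, -0.047 to 0.0075 for *Klf9*, -0.032 to 0.022 for *Tsc22d3*, and -0.081 to 0.019 for *Zbtb16*. The difference of effects ranged from -0.14 to 0.61 for *Hif3a*, -0.091 to 0.28 for *Pdk4*, -0.056 to 0.046 for *Klf9*, and -0.087 to 0.0051 for *Tsc22d3*. Counts of 236 for *Hif3a* and 320 for *Pdk4* over 24 libraries limit what can be seen of this pair.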

Other observations

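Over the 24 IP libraries, with group means removed, the levels of the 10 genes were compared pairwise in 45 relations, of which 23 were positive and 22 negative. The receptor *Nr3c2* and the responsive gene *Tsc22d3* had the only Pearson correlation with an adjusted p under 0.05 (r = -0.71, permutation p = 0.00107, adjusted p = 0.0481), with a Spearman rho of -0.67 (permutation p = 0.00164, adjusted p = 0.0738). Without the 2 libraries farthest from the median of *Nr3c2*, r was -0.57.

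Both genes also followed a property of the libraries. The slope of log2 CPM on log2 gene length ran from 0.18 to 0.39 over the libraries and spanned similar ranges in the 4 groups, with medians of 0.24 and 0.27 at ZT8 and 0.25 and 0.26 at ZT20 in controls and *ChAT-BKO* neurons. With group means removed, 10 relations to this slope were computed. *Tsc22d3* had r = -0.92 (permutation p = 1e-05, adjusted p = 1e-04) and rho = -0.90 (permutation p = 1e-05, adjusted p = 1e-04), where 1e-05 is the least value 1e+05 permutations allow, and *Nr3c2* had r = 0.80 (permutation p = 5e-05, adjusted p = 0.00025, rho 0.79, permutation p = 9e-05, adjusted p = 0.00045). Without the 2 libraries farthest from the median slope, r was -0.91 and 0.71. *Zbtb16* passed by rank alone, with rho = 0.56 (permutation p = 0.0117, adjusted p = 0.0390) and r = 0.51 (permutation p = 0.0215, adjusted p = 0.0538), and r was 0.44 without 2 libraries. *Errfi1* had r = -0.08 (permutation p = 0.698, adjusted p = 0.698, rho -0.02, permutation p = 0.929) and *Fkbp5* had r = -0.54 (permutation p = 0.0176, adjusted p = 0.0538, rho -0.42, permutation p = 0.0781), the latter falling to -0.37 without 2 libraries. What sets the slope of a library was not tested.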
